A study of Mus musculus with 7 samples.

Results

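The proteasome subunit genes comprised 38 of the 55487 genes in the deposited table. They were chosen by name, as the rows whose identifier maps to a listed subunit symbol, and the rule used no measured value. All 38 were in the table and all 38 passed the filter on low values (at least 1 TPM, a transcript abundance corrected for length, in at least 3 of the 7 libraries). They were read in 4 classes. The core class had 14 subunits of the barrel-shaped core particle. The immune class had 5 genes, Psmb8, Psmb9, Psmb10, Psme1 and Psme2. The regulatory class had 17 subunits of the cap, and the remaining 2 genes, Psme3 and Psme4, encode other activators.

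The proteasome is the main protease of the cytosol and nucleus for proteins tagged with ubiquitin. The cap binds and unfolds the substrate, and the core cuts it with 3 kinds of catalytic beta subunit, encoded by Psmb5, Psmb6 and Psmb7. Interferon gamma is known to induce Psmb8, Psmb9 and Psmb10, whose products replace those of Psmb5, Psmb6 and Psmb7 in newly built cores and shift the cut peptides towards ends that fit class I molecules. Leukocytes often carry this immunoproteasome without stimulation, so in a tumour its genes can come from several cell types.

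RNA was sequenced from primary tumours of wild-type BALB/c mice that had received 4T1-12b(luc) cells, a luciferase-carrying mouse mammary carcinoma line, in the mammary fat pad. From a size of about 150 mm3, tumours were injected every other day, 6 times, and the samples are labelled day 12. In the TIS sEV group (3 libraries) the injection held small extracellular vesicles of 4T1 cells kept in 100 ng/ml nocodazole, a drug that stops mitosis, for 72 h and then released into complete medium for 72 h. In the Cont sEV group (1 library) the vesicles came from 4T1 cells given DMSO instead, and in the Saline group (3 libraries) the tumours received saline. All groups therefore carried the same tumour line and the same injection schedule. The age of the mice is not given in the labels, which number the replicates without saying that they are separate animals. A p-value here measures only how far these samples spread, and that spread may be technical. The vesicle columns of the table are headed CE and NcE. They were read as control and nocodazole vesicles from the protocol. The labels do not spell this out, and all vesicle comparisons depend on it.

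The libraries differed in RNA make-up. TIS sEV 2 stood apart, with 28.6% of its TPM on nuclear protein-coding genes and 22.9% on ribosomal RNA, against 56.8% to 74.7% and 0.807% to 2.40% in the other 6 libraries. TPM keeps no depth, so sequencing depth is unknown and intervals of counting error cannot be given. To compare libraries, each value was divided by a median-of-ratios size factor (0.369 for TIS sEV 2, 0.986 to 1.496 for the others), and the result is called scaled TPM. Epithelial markers, which 4T1 tumours should carry, were at 1 TPM or more in every library for 6 of 6 genes. In whole tumour RNA, fewer cells of a type and less RNA per cell cannot be told apart.

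Most proteasome genes had a higher mean level in TIS sEV than in Saline tumours, and none passed the test. The fitted log2 difference was above 0 for 34 of 38 genes, against 46.9% of the 12058 genes tested, and below 0 for 4, against 53.1%. Its median over the 38 was 0.40, with a range of -0.22 to 1.20, and the median over all tested genes was -0.037. Medians by class were 0.86 for the immune, 0.45 for the core and 0.30 for the regulatory genes. With limma and Benjamini-Hochberg adjustment, 0 of the 38 genes passed 0.05, as did 0% of all tested genes, and 14.6% of all tested genes had an unadjusted p under 0.05, in either direction. For the proteasome genes the adjusted p ran from 0.332 to 0.974. At an unadjusted p under 0.05, 12 of the 38 were higher and 0 lower, against 7.46% and 7.16% of all tested genes. The TIS sEV libraries lay above every Saline library for 17 of the 38 genes and below for 0, against 10.4% and 13.5% of all tested genes.

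These counts depended on scaling and on single libraries. In the TPM as deposited the median gene differed by -0.62, and 30 of the 38 were above that median, but 0 lay apart from and above Saline and 0 were higher at an unadjusted p under 0.05, both judged with that shift included. With quantile normalization the numbers were 26, 6 and 2. Without Saline 2, 4 genes in place of 12 were higher at an unadjusted p under 0.05, and without Saline 1 there were 7. Without TIS sEV 2, the library rich in ribosomal RNA, 31 genes were above 0 and 8 were higher at an unadjusted p under 0.05. The number of all tested genes at that threshold, in either direction, moved too. It was 1763 of 12058 in the main fit, 674 of 11761 without Saline 2 and 1091 of 11892 without Saline 1. Without TIS sEV 2 it was 1480 of 11988, with deposited TPM 1245 and with quantile normalization 1747 of 12058. Proteasome genes are well expressed, so they were also set beside the 6298 tested genes in their range of mean level, 6.76 to 632 scaled TPM. Of those, 53.6% were above 0, 13.8% had TIS sEV apart from and above Saline, and the median was 0.041.

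**Figure D1:**
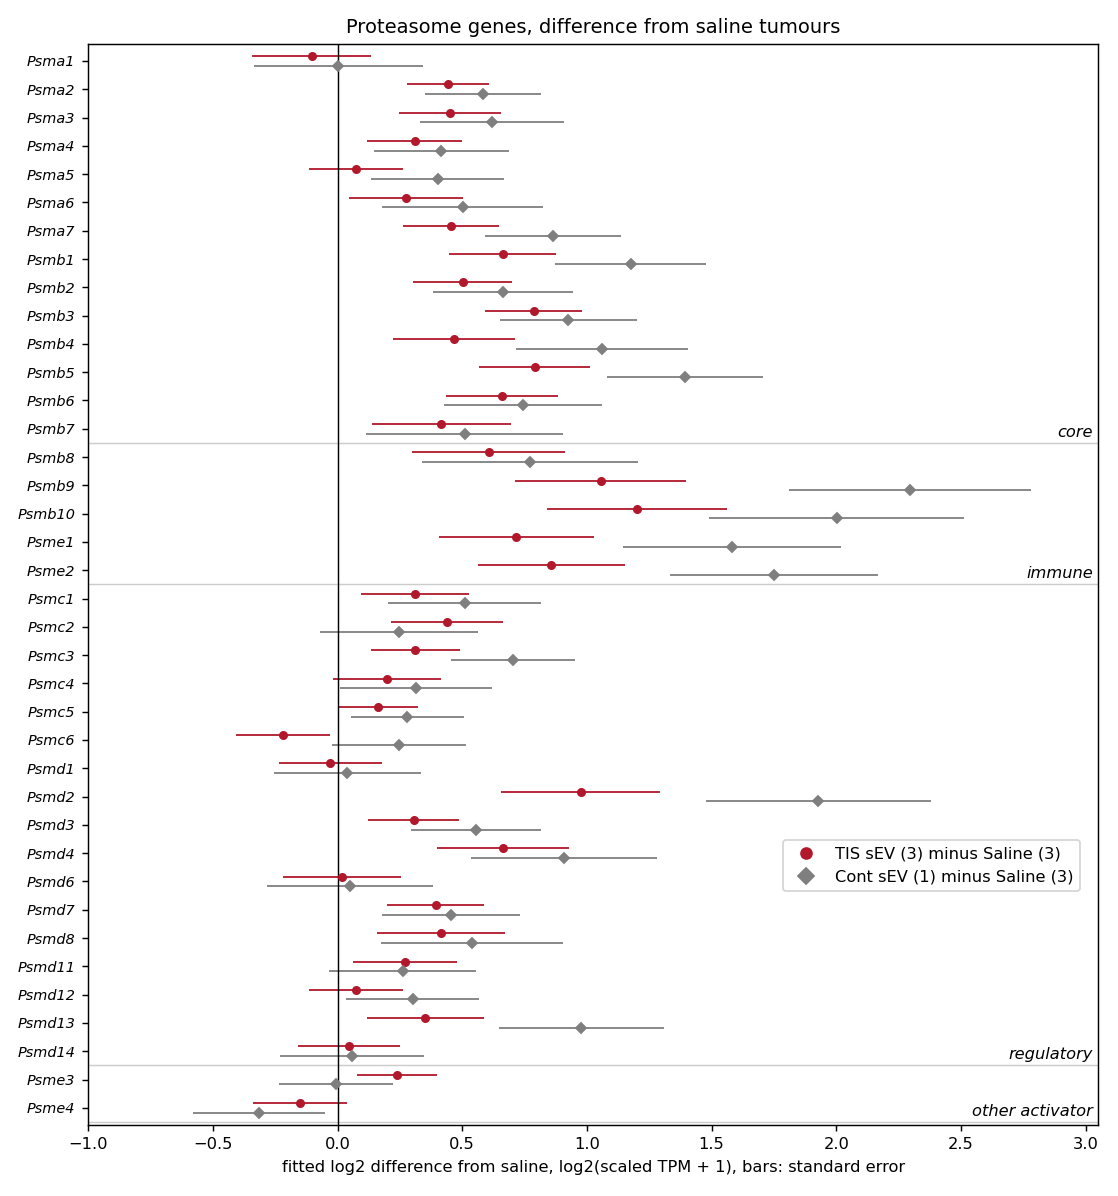
Fitted log2 difference from the Saline tumours for each of the 38 proteasome genes, on the log2(scaled TPM + 1) scale, with TIS sEV (3 libraries, red circles) and Cont sEV (1 library, grey diamonds) and bars of 1 standard error from limma. Most circles lie right of 0, from -0.22 for Psmc6 to 1.20 for Psmb10, and the Cont sEV diamonds of Psmb9, Psmb10, Psme1, Psme2 and Psmd2 lie farthest right.

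Psmb10 and Psmb9, inducible catalytic subunits, had the highest fitted differences of the set, and Psmb8, the remaining one, a lower difference. Psmb10, which takes the place of Psmb7 and carries the trypsin-like site, had 468, 784 and 975 scaled TPM in TIS sEV 1, 2 and 3, 1237 in Cont sEV 1, and 340, 213 and 406 in Saline 1, 2 and 3. All vesicle libraries were above all Saline libraries. The means were 742 ± 256 in TIS sEV and 319 ± 98.2 in Saline tumours (SD, n = 3 each), and the fitted log2 difference was 1.20 (SE 0.36, limma, Benjamini-Hochberg adjusted p = 0.332). In the TPM as deposited, which are not divided by size factors, Psmb10 had 583, 289 and 972 in TIS sEV, 1219 in Cont sEV and 344, 318 and 593 in Saline, so that the groups overlapped through TIS sEV 2. The gene lies on the minus strand of chromosome 8, from 105935735 to 105938444 of GRCm38.

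Psmb9 replaces Psmb6. It had 288, 271 and 394 scaled TPM in the TIS sEV libraries, 741 in Cont sEV and 181, 91.1 and 206 in the Saline libraries. The lowest TIS sEV value was above the highest Saline value, and Cont sEV was far above both. TIS sEV averaged 318 ± 66.3 and Saline 159 ± 60.4 (SD, n = 3 each), and the fitted difference was 1.06 (log2, SE 0.34, limma adjusted p = 0.332). Psmb9 lies on chromosome 17 (34181987 to 34187764, minus strand) in the class II region of the major histocompatibility complex. It overlaps Tap1, which is read from the opposite strand and reached 95.3 TPM. Whether the counting used strand is not given in the sources used here, so reads of the overlap may be assigned to either gene.

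Psmb8 replaces Psmb5 and carries the chymotrypsin-like site. Its levels overlapped between groups, at 400, 514 and 347 scaled TPM in TIS sEV, 465 in Cont sEV and 276, 189 and 386 in Saline. TIS sEV 3 was below Saline 3, and the highest of the 7 values was in TIS sEV 2. The log2 difference was 0.61 (SE 0.31, limma adjusted p = 0.379), the smallest of the 5 immune genes. Psmb8 also lies on chromosome 17, at 34197721 to 34201454 on the plus strand, close to Psmb9.

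Psme1 and Psme2 encode the alpha and beta chains of PA28, a ring that binds the end of the core and opens it without ATP or ubiquitin. Psme1 had 368, 514 and 525 scaled TPM in TIS sEV, 845 in Cont sEV and 308, 189 and 383 in Saline, with TIS sEV 1 just under Saline 3. Psme2 had 473, 624 and 718 in TIS sEV, 1107 in Cont sEV and 389, 229 and 398 in Saline, with no overlap between TIS sEV and Saline. The log2 differences of TIS sEV from Saline were 0.72 (SE 0.31) and 0.86 (SE 0.30), with limma adjusted p of 0.346 and 0.332. The genes lie near each other on chromosome 14, Psme1 at 55578123 to 55581529 on the plus strand and Psme2 at 55587441 to 55591113 on the minus strand. A near copy of Psme2 on chromosome 11, Psme2b, was listed at 6.99 to 26.4 TPM in the deposited values, so a small share of the Psme2 reads may be split with it.

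The immune genes shared a pattern across libraries. All 5 were lowest of the 7 libraries in Saline 2, and 4 of the 5 were highest in Cont sEV 1, with Psmb8 the exception. The other classes showed this in part. Saline 2 was lowest for 7 of the 14 core and 2 of the 17 regulatory genes. Cont sEV 1 was highest for 6 core and 6 regulatory genes. Between the Saline tumours the highest value was 1.74 to 2.26 times the lowest for the immune genes, against 1.05 to 1.60 times for the core and 1.06 to 1.45 times for the regulatory genes. In the TIS sEV tumours the classes were more alike, at 1.43 to 2.08, 1.17 to 1.72 and 1.14 to 2.07 times. Without Saline 2 the immune median of TIS sEV against Saline was 0.59 in place of 0.86, and without TIS sEV 2 it was 0.83.

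**Figure D2:**
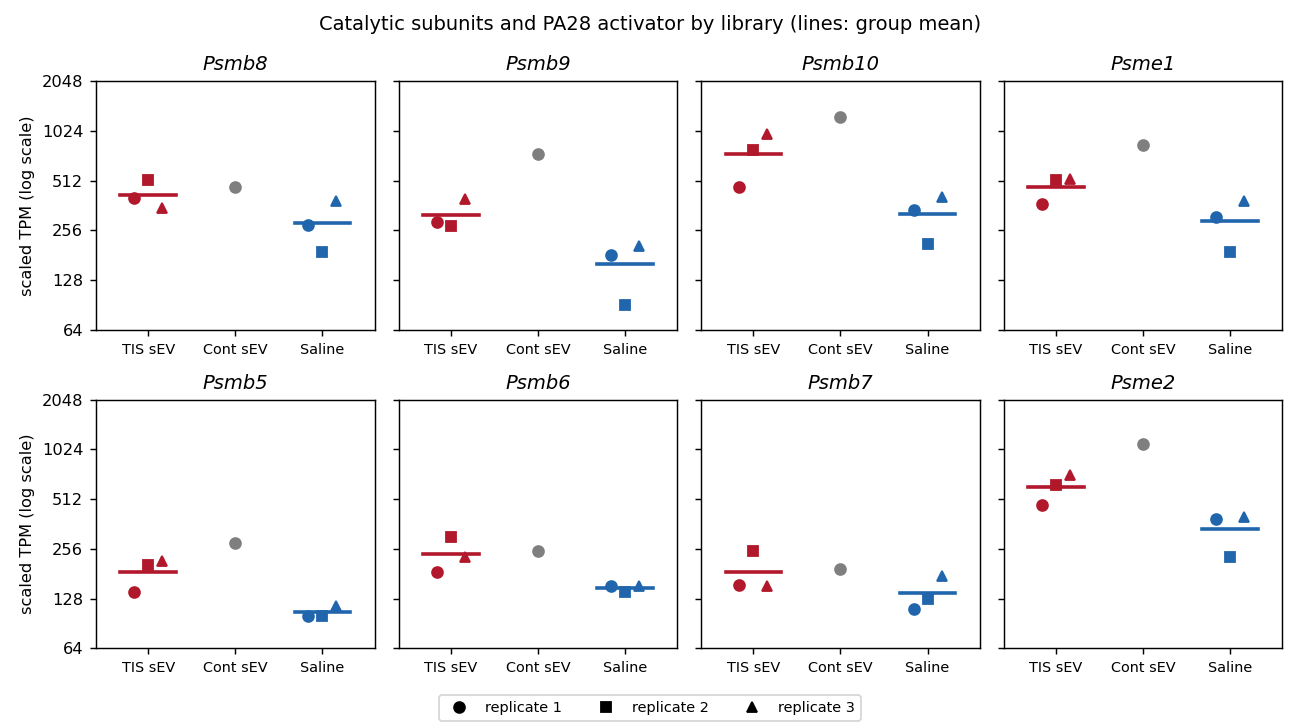
Scaled TPM, on a log axis, of the 3 constitutive catalytic subunits, their 3 immune counterparts, Psme1 and Psme2 in each library, with 1 point per library, marker shapes for the replicate numbers and a line at the mean of each group with 3 libraries. Saline 2 holds the lowest point for each immune gene, and the single Cont sEV point is the highest for Psmb9, Psmb10, Psme1 and Psme2.

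The constitutive catalytic subunits also had higher means in TIS sEV tumours. Psmb5, the chymotrypsin-like subunit and the main target of bortezomib, had 140, 204 and 215 scaled TPM in TIS sEV, 279 in Cont sEV and 101, 101 and 115 in Saline. The Saline values were close together and all lay below the vesicle values. The means were 186 ± 41.0 in TIS sEV and 106 ± 8.46 in Saline tumours (SD, n = 3 each) and the log2 difference 0.79 (SE 0.22, limma adjusted p = 0.332).

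Psmb6, the caspase-like subunit, had 186, 303 and 228 scaled TPM in TIS sEV, 249 in Cont sEV and 153, 140 and 153 in Saline, again with no overlap, and a difference of 0.66 (log2, SE 0.22, limma adjusted p = 0.332). Psmb7, the trypsin-like subunit, had 155, 250 and 153 in TIS sEV, 193 in Cont sEV and 110, 128 and 176 in Saline. Here Saline 3 was above TIS sEV 1 and TIS sEV 3, and the difference was 0.42 (SE 0.28, limma adjusted p = 0.463).

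Because a size factor cancels in a ratio within a library, each immune subunit was also divided by the subunit it replaces. Psmb10 to Psmb7 was 3.02, 3.13 and 6.36 in TIS sEV, 6.40 in Cont sEV and 3.08, 1.66 and 2.30 in Saline. TIS sEV 3 and Cont sEV 1 stood above the rest, while TIS sEV 1 and 2 were close to Saline 1. Psmb9 to Psmb6 was 1.55, 0.894 and 1.73 in TIS sEV, 2.98 in Cont sEV and 1.19, 0.653 and 1.35 in Saline, so the TIS sEV and Saline ranges overlapped. Psmb8 to Psmb5 was 2.87, 2.51 and 1.61 in TIS sEV, 1.67 in Cont sEV and 2.75, 1.87 and 3.34 in Saline, with the lowest ratios in TIS sEV 3 and Cont sEV 1.

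The log2 ratio of TIS sEV over Saline tumours was 0.79 for Psmb10 to Psmb7 (exact two-sided permutation p = 0.2), 0.40 for Psmb9 to Psmb6 (exact p = 0.5) and -0.19 for Psmb8 to Psmb5 (exact p = 0.6). Adjusted over these 3 pairs, each p was 0.6, and 3 libraries against 3 cannot give an exact p under 0.1. Single libraries moved all 3. Psmb10 to Psmb7 was 0.44 without TIS sEV 3. Psmb9 to Psmb6 was 0.082 without Saline 2, 0.22 without TIS sEV 3, 0.69 without TIS sEV 2 and 0.61 without Saline 3. The negative sign for Psmb8 to Psmb5 turned to 0.057 without TIS sEV 3, and the value was -0.0014 without Saline 3, -0.36 without TIS sEV 1 and -0.42 without Saline 2. None of the 3 pairs passed the test, and their signs were not alike. Psme1 to Psme2, the chains of 1 ring, kept to 0.780, 0.823 and 0.732 in TIS sEV, 0.764 in Cont sEV and 0.792, 0.827 and 0.962 in Saline.

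**Figure D3:**
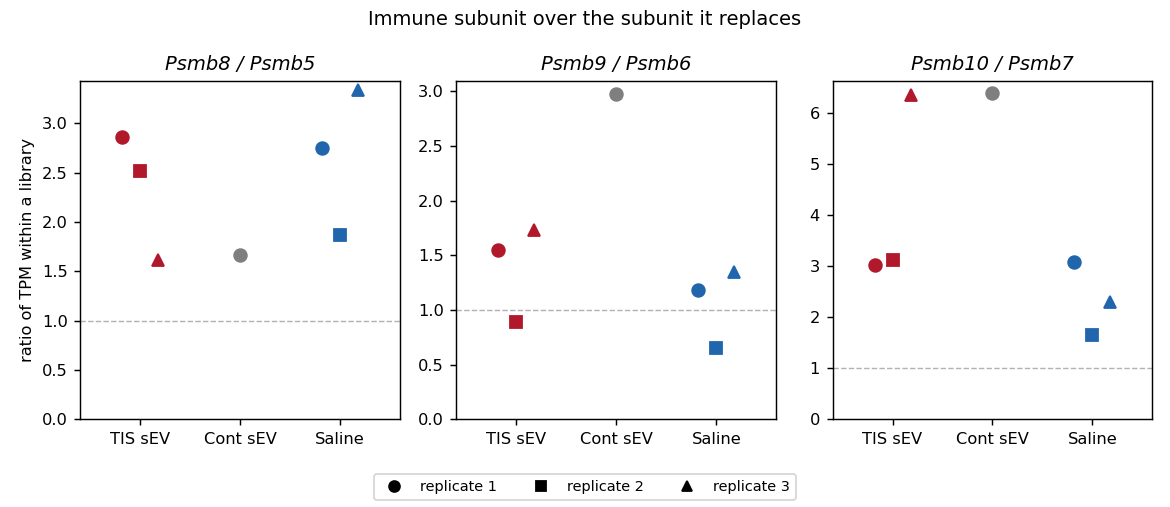
Ratio of each immune subunit to the constitutive subunit it replaces, from TPM within a library, on linear axes from 0, with 1 point per library, marker shapes for the replicate numbers and a dashed line at a ratio of 1. The TIS sEV and Saline points overlap in every panel, and TIS sEV 3 and Cont sEV 1 have the highest Psmb10 to Psmb7 (6.36 and 6.40) and the lowest Psmb8 to Psmb5 ratios (1.61 and 1.67).

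Windows of 4 genes are shown, chosen among those that hold a match. Psmb8 and Psme1 are immune genes with a motif of interferon signalling, and Psmb5 and Psmb6 are constitutive genes with the motif of the Nfe2l1 family. Other windows of both classes lacked these motifs, as given below. RefSeq (GRCm38.p6) gave 35 promoter windows for 32 of the 38 genes, each of 300 bases with 250 before and 50 after the start. Capitals mark the motif found in each: TTCNNNGAA, the palindrome of STAT factors, at -97 to -89 in Psmb8 (chr17:34197945-34198244, plus strand), GAAANNGAAA, the repeat of IRF factors, on the other strand at 9 to 18 in Psme1 (chr14:55578244-55578543, plus strand), and TGACNNNGC, the core bound by Nfe2l1 and Nfe2l2, at -47 to -39 in Psmb5 (chr14:54617946-54618245, minus strand) and -9 to -1 in Psmb6 (chr11:70525107-70525406, plus strand).
Psmb8: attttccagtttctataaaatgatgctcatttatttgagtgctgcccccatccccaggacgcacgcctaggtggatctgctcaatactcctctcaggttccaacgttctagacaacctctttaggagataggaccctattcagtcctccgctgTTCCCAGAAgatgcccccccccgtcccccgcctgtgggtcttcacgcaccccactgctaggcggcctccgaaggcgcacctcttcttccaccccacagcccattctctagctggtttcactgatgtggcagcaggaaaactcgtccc
Psme1: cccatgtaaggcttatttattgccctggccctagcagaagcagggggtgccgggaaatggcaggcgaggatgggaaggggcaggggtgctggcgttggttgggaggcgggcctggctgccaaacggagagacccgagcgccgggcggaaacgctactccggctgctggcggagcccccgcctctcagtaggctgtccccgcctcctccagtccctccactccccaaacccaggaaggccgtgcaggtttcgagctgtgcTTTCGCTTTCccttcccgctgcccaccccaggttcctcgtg
Psmb5: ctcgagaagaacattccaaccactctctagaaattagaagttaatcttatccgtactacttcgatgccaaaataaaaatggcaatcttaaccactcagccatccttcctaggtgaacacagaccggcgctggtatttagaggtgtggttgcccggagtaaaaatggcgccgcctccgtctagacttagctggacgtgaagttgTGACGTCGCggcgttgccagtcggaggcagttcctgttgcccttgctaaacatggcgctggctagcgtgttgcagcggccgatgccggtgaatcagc
Psmb6: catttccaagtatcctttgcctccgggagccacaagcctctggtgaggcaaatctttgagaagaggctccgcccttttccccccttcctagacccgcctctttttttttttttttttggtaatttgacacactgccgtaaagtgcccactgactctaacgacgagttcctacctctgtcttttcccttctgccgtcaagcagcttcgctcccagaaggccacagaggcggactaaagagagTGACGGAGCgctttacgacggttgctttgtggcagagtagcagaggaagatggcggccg

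Both strands were searched, and the motifs may overlap. The STAT palindrome was in 5.71% of the 35 windows and in 8.30% of all 32851 RefSeq windows of the same length, and the IRF repeat in 8.57% and 3.44%. The IRF repeat was in the windows of Psmd4, Psmb3 and Psme1, and the STAT palindrome in those of Psmd2 and Psmb8. The windows of the immune genes Psmb9, Psmb10 and Psme2 held neither, and the matches were spread over core, immune and regulatory genes. The TGACNNNGC core was in 14.3% of proteasome windows and 12.4% of all windows, in Psmb5, Psmb6, Psme4, Psmd12 and Psmc6. It was in 2 of the 12 windows of core genes and 0 of the 6 windows of immune genes. CCAAT boxes were in 34.3% and 37.4%. A match describes the letters of a window and not a bound site. For Psmb8, Psme1 and Psmb5, GENCODE lists a start upstream of the RefSeq one, so the positions of their matches depend on the start used. For Psmb8 (34197721) and Psme1 (55578123) that start lies before the window shown.

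In the core class, 13 of the 14 genes had a difference above 0 for TIS sEV against Saline, against 46.9% of all tested genes. The 7 constitutive beta subunits had a median log2 difference of 0.66 and were all above 0, and the 7 alpha subunits, which form the outer gated rings, had a median of 0.31 with 6 above 0. At an unadjusted p under 0.05, 5 beta and 2 alpha subunits were higher, against 7.46% of all tested genes. None passed the limma test after adjustment. The 3 highest differences were those of Psmb5, Psmb3 and Psmb1. Psmb3, a beta subunit with no catalytic site, had 261, 353 and 327 scaled TPM in TIS sEV, 342 in Cont sEV and 174, 173 and 193 in Saline (difference 0.79, SE 0.19, limma adjusted p = 0.332). Psmb1, also non-catalytic, had 165, 241 and 224 in TIS sEV, 296 in Cont sEV and 143, 116 and 134 in Saline (difference 0.66, SE 0.21, limma adjusted p = 0.332). For both genes every vesicle library was above every Saline library.

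The lowest core differences were in the alpha ring. Psma1 had 77.0, 96.2 and 57.6 scaled TPM in TIS sEV, 81.2 in Cont sEV and 76.9, 96.2 and 71.8 in Saline, a difference of -0.10 (SE 0.24) that was 0.089 without TIS sEV 3. Psma5 had 149, 174 and 129 in TIS sEV, 188 in Cont sEV and 135, 138 and 155 in Saline, a difference of 0.073 that was below 0 with quantile normalization (-0.27), relative to the median gene in deposited TPM (-0.062) and without TIS sEV 2 (-0.034). Psma6 had 116, 192 and 127 in TIS sEV, 166 in Cont sEV and 119, 119 and 113 in Saline, a difference of 0.27 that was -0.057 with quantile normalization. The Saline values of all 3 genes lay within or close to the TIS sEV range. Psma7, the most abundant alpha subunit in Saline tumours, lay apart at 292, 361 and 269 in TIS sEV, with 405 in Cont sEV, against 222, 213 and 232 in Saline, a difference of 0.46 (SE 0.19, limma adjusted p = 0.341) that was -0.0100 with quantile normalization.

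In the regulatory class, 15 of the 17 genes had a difference above 0, against 46.9% of all tested genes, and the spread between members was wide. Psmd2, a scaffold of the base that receives ubiquitin-like domains, had the highest difference of the class. It had 175, 191 and 362 scaled TPM in TIS sEV, 445 in Cont sEV and 138, 94.7 and 120 in Saline (0.98, SE 0.32, limma adjusted p = 0.332), with no overlap and with TIS sEV 3 and Cont sEV 1 well above the others. Psmd4, a ubiquitin receptor of the cap, had 207, 377 and 322 in TIS sEV, 347 in Cont sEV and 191, 203 and 162 in Saline (0.66, SE 0.26, limma adjusted p = 0.335), also with no overlap. These were the only 2 of the 17 regulatory genes with an unadjusted p under 0.05, and 7.46% of all tested genes were higher at that threshold.

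The 6 ATPases of the base, which unfold and feed in the substrate, had a median difference of 0.25. Psmc2 had 69.8, 96.9 and 61.4 scaled TPM in TIS sEV, 65.2 in Cont sEV and 48.4, 54.2 and 62.6 in Saline (0.44, SE 0.22), with TIS sEV 3 below Saline 3. Psmc6 had the lowest difference of the 38 genes, at 40.02, 39.5 and 28.9 in TIS sEV, 49.8 in Cont sEV and 43.3, 39.3 and 42.8 in Saline (-0.22, SE 0.19). TIS sEV 3 alone was well under the Saline values. The ATPase subunits thus ran from -0.22 to 0.44, although each hexamer holds 1 copy of each.

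All 8 lid genes were above 0, against 46.9% of all tested genes. Their median was 0.29 and their highest difference 0.41 (Psmd8), but some were near 0. Psmd14, the deubiquitinase that removes the ubiquitin chain, had 51.5, 57.1 and 37.4 scaled TPM in TIS sEV, 48.4 in Cont sEV and 45.9, 48.8 and 44.8 in Saline. Its difference of 0.046 was -0.077 relative to the median gene in deposited TPM and -0.15 with quantile normalization. Psmd6, another lid subunit, had 35.3, 43.5 and 26.3 in TIS sEV, 35.2 in Cont sEV and 33.9, 28.9 and 39.7 in Saline, with a difference of 0.017 that was -0.099 and -0.13 under those scalings. Psmd1, the second large scaffold of the base, had 35.3, 35.6 and 25.4 in TIS sEV, 33.3 in Cont sEV and 27.5, 35.0 and 35.3 in Saline, with a difference of -0.029 that was 0.13 without TIS sEV 3. The groups overlapped for these 3 genes. Psmd1 overlaps Gm21972, a protein-coding gene read from the same strand. Gm21972 reached 20.5 TPM in the deposited values, where Psmd1 was as low as 13.1, so reads may be split between the genes.

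Psme3 and Psme4 encode activators found mainly in the nucleus, and were the lowest of the 38 genes by level. Psme3 had 25.0, 27.2 and 23.0 scaled TPM in TIS sEV, 20.96 in Cont sEV and 20.7, 21.9 and 20.5 in Saline (0.24, SE 0.16, limma adjusted p = 0.464). TIS sEV was above Saline by a narrow margin. Psme4 had 7.24, 5.92 and 6.40 in TIS sEV, 5.69 in Cont sEV and 6.35, 8.49 and 7.27 in Saline (-0.15, SE 0.19, limma adjusted p = 0.677), and the groups overlapped. Neither followed Psme1 and Psme2, whose Cont sEV values were the highest of all libraries.

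The mean log2 level of each class in each library separates the classes further. For the immune genes it was 8.62, 9.002 and 9.11 in TIS sEV, 9.70 in Cont sEV and 8.18, 7.45 and 8.44 in Saline. For the core genes it was 7.22, 7.69 and 7.37 in TIS sEV, 7.69 in Cont sEV and 6.94, 6.94 and 7.07 in Saline. The regulatory genes had 6.15, 6.41 and 6.22 in TIS sEV, 6.48 in Cont sEV and 5.96, 5.99 and 6.00 in Saline. For each class, the vesicle libraries were above the Saline libraries on this scaling. The immune minus core difference, in which scaling cancels, was 1.401, 1.32 and 1.74 in TIS sEV, 2.01 in Cont sEV and 1.24, 0.51 and 1.36 in Saline, so TIS sEV 2 was below Saline 3. TIS sEV 2 was the highest TIS sEV library for 12 of 14 core and 10 of 17 regulatory genes, and TIS sEV 3 for 4 of 5 immune genes.

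As a share of the TPM of nuclear protein-coding genes, the 38 genes took 1.08%, 0.992% and 1.15% in TIS sEV, 1.30% in Cont sEV and 0.811%, 0.807% and 0.980% in Saline tumours. This share uses no size factor, and the TIS sEV and Cont sEV values were above the Saline values, although TIS sEV 2 was only just above Saline 3. The immune genes made up 35.4%, 35.2% and 40.4% of all proteasome TPM in TIS sEV, 45.3% in Cont sEV and 32.8%, 22.9% and 35.5% in Saline. By this second share TIS sEV 1 and 2 were within the Saline range, and Saline 2 was the lowest.

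**Figure D4:**
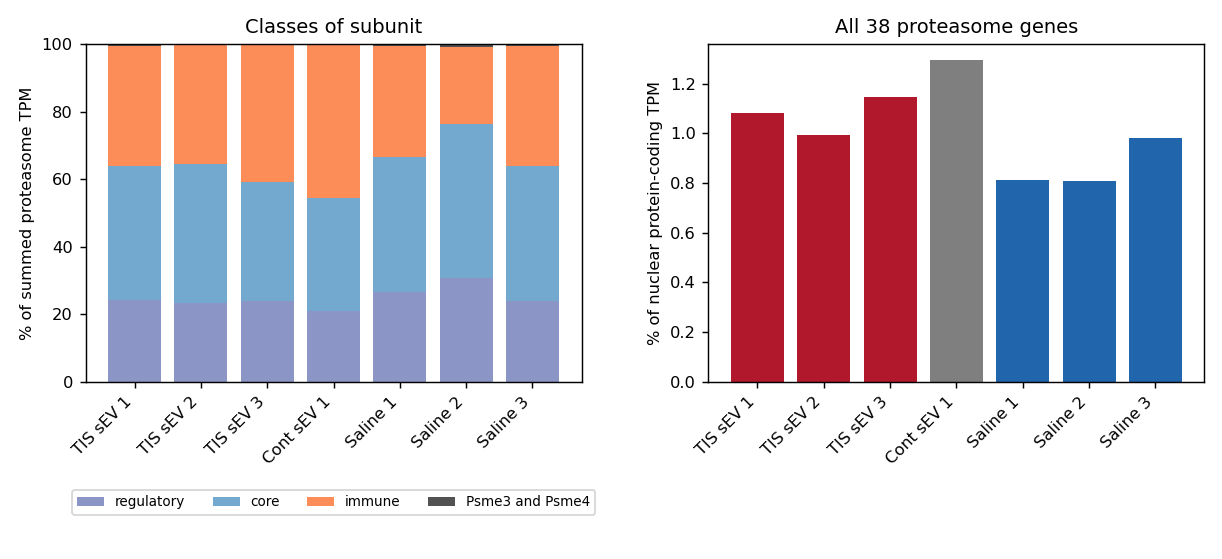
Bars for each library, from deposited TPM, of the percent of summed proteasome TPM in the regulatory, core, immune and other activator classes (left, stacked to the whole) and the percent of nuclear protein-coding TPM held by all 38 proteasome genes (right, coloured by group). On the left the immune segment is smallest in Saline 2 (22.9%) and largest in Cont sEV 1 (45.3%), and on the right the TIS sEV bars (0.992% to 1.15%) end above the Saline bars (0.807% to 0.980%).

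Cont sEV is 1 library, assumed in the fit to vary like the others. Against Saline its difference was above 0 for 36 of the 38 genes, against 50.2% of all tested genes, with a median of 0.55 against 0.0031. The immune median was 1.75, the core median 0.64 and the regulatory median 0.32. With limma 0 of the 38 passed adjustment, against 0.00829% of all tested genes, while 15 were higher and 0 lower at an unadjusted p under 0.05, against 7.78% and 5.16%, or 12.9% in either direction. The value was above all Saline libraries for 32 genes, against 35.9% of all tested genes, and below all of them for 1 gene, Psme4, against 35.4%. Among the 6298 genes in the members' range of level, 45.4% had Cont sEV above all Saline libraries, 59.7% were above 0, and the median was 0.14. Psmb9 had the largest difference, 2.29 (SE 0.48, limma adjusted p = 0.340), followed by Psmb10 with 2.00 (SE 0.51) and Psmd2 with 1.93 (SE 0.45).

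Against Cont sEV, TIS sEV tumours had a difference below 0 for 34 of the 38 genes and above 0 for 4, against 53.9% and 46.1% of all tested genes, and a median of -0.17. The comparisons with Saline share the same Saline libraries, and those with Cont sEV share its only library. With limma 0 members passed adjustment, against 0.00829% of all tested genes, while 1, Psmb9, was lower and 0 higher at an unadjusted p under 0.05, against 3.41% and 1.76%, or 5.17% in either direction. Psmb9 differed by -1.24 (SE 0.48, limma adjusted p = 0.897). The 5 immune genes had a median of -0.87, the core genes -0.16 and the regulatory genes -0.12. All TIS sEV libraries were below Cont sEV for 16 genes, against 25.3% of all tested genes, and above it for 2, Psme3 and Psme4, against 19.8%. For the immune genes, then, the single Cont sEV library held higher levels than the mean of the TIS sEV libraries, a gap that did not pass the test.

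The proteasome needs chaperones for assembly. Of 9 listed assembly genes, 8 were tested, and 7 had a difference above 0 for TIS sEV against Saline, against 46.9% of all tested genes. The median was 0.39 and 0 passed the limma test. At an unadjusted p under 0.05, 3 were higher, against 7.46% of all tested genes. Psmd9, a chaperone of the base ATPases, had the highest difference, 30.9, 61.9 and 41.5 scaled TPM in TIS sEV, 62.1 in Cont sEV and 25.0, 24.9 and 24.7 in Saline (0.77, SE 0.26, limma adjusted p = 0.332). Psmd5, another base chaperone, had the lowest, -0.21. For the other subunits and associated proteins, 9 of 11 listed names were found in the table. Of these, 7 were tested and 4 were above 0 (median 0.18). The 7 ran from the cap ubiquitin receptor Adrm1 with 0.61 to the scaffold protein Ecpas with -0.73. For the ubiquitin and substrate delivery genes, 12 of 13 listed names were found. Of these, 11 were tested and 7 were above 0 (median 0.11), with the lowest difference, -0.52, in the shuttle protein Rad23b. Without TIS sEV 2 the medians of these lists were 0.055 and 0.0046. In both lists 0 genes passed the limma test. At an unadjusted p under 0.05, 1 was higher and 1 lower in each, against 7.46% and 7.16% of all tested genes.

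Nfe2l1 is the transcription factor that is known to raise proteasome subunit genes when the proteasome is inhibited. Of its list of 6 genes 2 were above 0, against 46.9% of all tested genes, with a median of -0.24 (-0.13 without TIS sEV 3). With limma 0 passed the test and 1 was lower at an unadjusted p under 0.05, against 7.16% of all tested genes. Mafk, a small Maf partner, had the highest difference, 0.18, and Nfe2l2, the oxidative stress factor, the lowest. Nfe2l2 had 23.9, 18.4 and 20.04 scaled TPM in TIS sEV, 17.4 in Cont sEV and 36.5, 38.4 and 37.7 in Saline (-0.83, SE 0.17, limma adjusted p = 0.332). The TIS sEV libraries were all below Saline for Nfe2l2, in the opposite direction to most subunits. Nfe2l1 itself, named after its values were seen, had 56.8, 25.4 and 46.5 in TIS sEV, 36.4 in Cont sEV and 53.0, 57.6 and 65.9 in Saline, with overlap.

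Peptides cut by the proteasome are carried into the endoplasmic reticulum and loaded on class I molecules. All 12 class I loading genes were below 0 for TIS sEV against Saline, against 53.1% of all tested genes. The median was -0.33, with a range from -0.70 for Pdia3, an oxidoreductase of the loading complex, to -0.12 for Calr, its chaperone calreticulin. None passed the limma test, and 1 was lower at an unadjusted p under 0.05, against 7.16% of all tested genes. The direction rested on TIS sEV 2: without it 9 of the 12 were above 0 and the median was 0.21. Tap1, the peptide transporter chain encoded next to Psmb9, was named after its values were seen. It had 59.2, 11.4 and 47.3 scaled TPM in TIS sEV, 83.3 in Cont sEV and 39.1, 36.6 and 65.2 in Saline. TIS sEV 2 had the lowest Tap1 value of all libraries, while its Psmb9 value, 271, was above every Saline value. The sum of the 12 genes was 8153, 2710 and 8107 in TIS sEV, 8883 in Cont sEV and 6453, 5931 and 8437 in Saline, with TIS sEV 2 alone far below.

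Of 12 genes of the interferon gamma pathway, the known inducer of the immune subunits, 9 were above 0, against 46.9% of all tested genes. They had a median of 0.17 and 0 adjusted calls by limma. At an unadjusted p under 0.05, 1 was higher and 1 lower, against 7.46% and 7.16% of all tested genes. The median was -0.11 without TIS sEV 1, -0.0065 without Saline 2 and 0.44 without TIS sEV 2. The chemokine Cxcl9 had the highest difference, 0.76, and the receptor chain Ifngr1 the lowest, -0.53. The transcription factor Irf1 was named after its values were seen. It had 108, 75.8 and 118 scaled TPM in TIS sEV, 157 in Cont sEV and 86.2, 52.4 and 102 in Saline. The lowest of the 7 libraries was Saline 2, as for all 5 immune proteasome genes.

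Marker lists describe the other cell types in the libraries beside these values. The 6 leukocyte markers summed to 179, 204 and 332 scaled TPM in TIS sEV, 285 in Cont sEV and 182, 180 and 190 in Saline, with the highest sums in TIS sEV 3 and Cont sEV 1. Members of the list differed: Cd52 and Coro1a were highest in these 2 libraries (144 and 75.1 in TIS sEV 3, 137 and 66.7 in Cont sEV 1), while Ptprc, the common leukocyte antigen, was at 2.45 in TIS sEV 3 and 2.37 in Cont sEV 1, against 2.74 to 4.09 in Saline, and Cd53 was lowest of all 7 libraries in Cont sEV 1 (11.1). In TIS sEV against Saline, 3 of the 6 leukocyte markers were above 0, against 46.9% of all tested genes. B and plasma cell markers summed to 23.4, 401 and 78.8 in TIS sEV, 39.8 in Cont sEV and 3.80, 7.40 and 1.70 in Saline. Igkc, Ighm and Jchain were above every Saline value in TIS sEV, and Igkc alone reached 19.6, 320 and 65.0. Cd79a, Cd79b and Ms4a1, of the same list, stayed at 0.58 or less in every library. T cell markers summed to 30.7, 26.2 and 62.9 in TIS sEV, 20.4 in Cont sEV and 17.6, 17.2 and 23.4 in Saline. Among them Trbc2 was higher in TIS sEV (13.5, 15.2 and 22.0, against 4.06 to 5.86 in Saline), while Cd3e, Cd3d, Cd3g, Trac, Cd4 and Cd8a overlapped. Macrophage markers ran from 175 to 640 in TIS sEV, with 363 in Cont sEV and 270 to 641 in Saline, and neutrophil markers from 1385 to 2572 in TIS sEV, with 487 in Cont sEV and 790.2 to 5884 in Saline. Epithelial markers ran from 1400 to 2447 in TIS sEV, with 2635 in Cont sEV and 1395 to 2830 in Saline. Of all 14 marker lists, only Krt1, a keratinocyte gene, was at 0 in every library, and no marker passed the limma test for TIS sEV against Saline. The part of cell content and RNA make-up in the proteasome differences was not tested.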

How the data were processed

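The authors deposited 1 table of TPM (transcript abundance corrected for length, with a fixed total per library) for 55487 genes and 7 libraries of tumour RNA. Reads were handled with Salmon 1.4.0, DESeq2 1.28.0, Trim Galore 0.6.6 and FastQC 0.11.9 on build GRCm38.p6, per the submitters' processing notes. For the strand setting and transcript annotation the sources used here give nothing. Symbols and coordinates came from GENCODE M21 of GRCm38, where 55227 identifiers were found. Gene sums of Salmon estimates can split reads between near copies.

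From the deposited TPM, values were divided by median-of-ratios size factors over 14868 genes, and log2(value + 1) was tested with limma 3.58.1 in R 4.3.3 (intensity trend, two-sided, 1 fit with 3 group means, 4 residual degrees of freedom). The filter kept 12058 genes (1 TPM or more in 3 or more libraries), with Benjamini-Hochberg adjustment over all of them and a threshold of 0.05. Differences understate the change of low genes. Size factors were used because the median gene differed by -0.62 between TIS sEV and Saline in the TPM as deposited. The fit was repeated with deposited TPM, quantile normalization, rescaling to nuclear protein-coding genes, a pseudocount of 0.1, no filter, no trend, a replicate block, and without each library in turn. The script was tested on simulated data. Ratios within a library used exact permutation tests in scipy 1.17.1.

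The members and lists were chosen with earlier results of these data known. Full values were given for the catalytic pairs, Psme1, Psme2, the 3 highest and 3 lowest differences in each class, and the highest and lowest of each pathway list, of which 1 is not reported here. Psma7, Psmd8, Psmd14, Psme3 and Psme4 were added after their values were seen.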

Additional observations from a re-analysis of the deposited data

How the results depend on the processing

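No proteasome gene had an adjusted p under 0.05 with limma under any alternative run for TIS sEV against Saline, and the lowest was 0.0991, without TIS sEV 1. Over all tested genes the calls were 0, but 62 with deposited TPM, whose test includes the shift of the median gene, and 0 to 4 when 1 library was left out (4 without TIS sEV 1). Quantile normalization gave a median of 0.092 for core, 0.37 for immune and 0.066 for regulatory genes. Deposited TPM gave 0.18 for regulatory genes, relative to the median gene, which itself differed by -0.62. Leaving out 1 library gave 0.32 to 0.54, 0.59 to 1.02 and 0.21 to 0.32 for these classes. Genes higher at an unadjusted p under 0.05 numbered 12, but 0 with deposited TPM, 2 with quantile normalization, 6 with coding-gene rescaling and 4 to 16 without 1 library. Of the 12058 tested genes, 1763 met that threshold in either direction, and 1245, 1747 and 1731 under those scalings. Without 1 library the number ran from 674 of 11761 (Saline 2 left out) to 2980 of 11812 (TIS sEV 1 left out). Genes with TIS sEV apart and above numbered 17, but 0, 6 and 8 under those scalings. With deposited TPM and with coding-gene rescaling, these counts included the shift of the median gene, -0.62 and -0.29. These counts were chosen after seeing the data.

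Relative to the median gene, deposited TPM turned the sign of Psma5 (-0.062), Psmd6 (-0.099), Psmd12 (-0.044) and Psmd14 (-0.077). Quantile normalization turned Psma5 (-0.27), Psma6 (-0.057), Psma7 (-0.0100), Psmc4 (-0.042), Psmc5 (-0.092), Psmd6 (-0.13), Psmd12 (-0.10) and Psmd14 (-0.15). The cause was not tested. Leaving out 1 library changed the sign of 6 genes near 0, with ranges of -0.28 to 0.089 (Psma1), -0.034 to 0.18 (Psma5), -0.15 to 0.13 (Psmd1), -0.15 to 0.21 (Psmd6), -0.032 to 0.19 (Psmd12) and -0.078 to 0.22 (Psmd14). It also gave -0.42 to 0.057 for the log2 ratio of Psmb8 to Psmb5, which turned without TIS sEV 3, and medians of -0.63 to 0.21 for the class I loading list and -0.11 to 0.44 for the interferon gamma list.

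Deviations of each gene from its group mean were correlated between TIS sEV and Saline libraries. Same-numbered libraries had correlations of -0.35, -0.0095 and 0.071, and differently numbered ones -0.29 to 0.32. Such deviations sum to 0 within a group, so these values cannot show whether the replicate numbers pair the samples. With the number as a replicate block, 0 proteasome genes passed and 6 were higher at an unadjusted p under 0.05. In that fit of TIS sEV against Saline, 1250 of the 12058 tested genes met this threshold in either direction. Without the filter on low values, the calls over all genes in the comparisons with the single Cont sEV library were 312 (Cont sEV against Saline) and 280 (TIS sEV against Cont sEV), and 25 and 27 with deposited TPM, against 1 and 1. Depth is unknown.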
